A study of Mus musculus with 15 samples.

Results

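The genes described here encode the enzymes and carriers that take glucose to pyruvate and lactate and pyruvate through the tricarboxylic acid (TCA) cycle. They are a list of 46 genes given by name. The rule uses no measured value, but the list was drawn up with earlier results of these data known. Of the 46, 42 had a probe set annotated to them alone and 40 were bright enough to be tested, among 9663 genes tested and 18193 genes in all. Gpi1, Eno1 and Mpc2 were not analysed here. Gapdh was read from the control probe sets of the array. Hk2 and Pdk2 lay near background. Of the 40 members tested, 37 exceeded a log2 value of 5, the limit used for background, on all 15 arrays, and the other 3 (Pfkfb3, Slc16a7 and Pdk1) did so on fewer.

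The neurons came from the G42 mouse line, in which green fluorescent protein driven by Gad1 promoter sequence marks fast-spiking, parvalbumin-class interneurons. Fluorescent cells were picked by hand from dissociated primary somatosensory cortex and their RNA was read on whole-genome Affymetrix mouse arrays. The 5 groups were ages, P7, P10, P15, P25 and P40 (P, postnatal day), of 3 mice and so 3 arrays each, and the last group reached day 45. All mice carried the transgene, none was treated, and no other condition was compared. Between 23 and 85 cells were pooled per mouse, and their RNA was amplified in 2 rounds. The values are log2 GCRMA values, so a difference of 1 is a change of 2-fold. In pooled cells, fewer cells of a type and less RNA per cell cannot be told apart.

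Glycolysis splits glucose in the cytosol into pyruvate, which lactate dehydrogenase can convert to and from lactate. The mitochondrial pyruvate carrier and the pyruvate dehydrogenase complex pass pyruvate on as acetyl-CoA to the TCA cycle, whose NADH feeds oxidative phosphorylation. The malate-aspartate shuttle carries cytosolic reducing power into mitochondria. Fast-spiking interneurons are known for firing at high rates and for a dense supply of mitochondria.

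The label was checked against marker genes. Gad1, the main GABA-synthesizing enzyme, lay between 13.47 and 15.35 on every array, and Pvalb averaged 3.62, below the limit, at P7 and 14.28 at P40. Of 8 parvalbumin-class markers 7 exceeded 5 on at least 3 arrays, and Erbb4 did so on 1. The 5 excitatory-neuron markers measured never exceeded 5. Markers of other interneuron classes were present, with Npy, Cck and Reln above 5 on all 15 arrays and Sst on 14, while Vip never was. Sst read 1.72 on P40 replicate 1 and 9.20 to 13.04 on the other arrays. Reln was also lowest on P40 replicate 1, at 7.80. Of the oligodendrocyte markers, Mbp and Cnp exceeded 5 on all 15 arrays, while Mog, Mag, Cldn11 and Ermn never did. Mbp and Mobp averaged 11.21 and 7.47 at P25, against 6.52 and 2.99 at P40. Cnp was highest at P7, averaging 10.75, against 9.79 at P25 and 9.10 at P40. The part of these other cell types in the differences was not tested. 3 arrays stood apart. P15 replicates 2 and 3 had hybridization spike controls at 2.48 and 2.44, against 7.96 to 12.04 on the other 13. P25 replicate 2 had the lowest 3′ beta-actin control, 11.00, and the highest value of the astrocyte gene Gja1, 9.65. Gja1 was also high on P10 replicates 2 and 3, at 8.55 and 9.02, against at most 4.03 on the remaining arrays. Those P10 arrays and P40 replicate 1 were not among the 3 set apart. Counts of limma calls between 2 ages are given with and without the 3 arrays that stood apart where they differ. Counts of peak ages are given on all arrays only.

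Most of the list was higher in the adult than at P7. Between P7 and P40, 24 of the 40 members rose and 5 fell, and 11 did not pass (limma, adjusted p under 0.05, that is, a Benjamini-Hochberg adjusted p over all genes tested). Over all genes tested, 27.5% were called higher and 17.6% lower. The median difference over the 40 members was 0.97, and over all genes tested it was 0.18. Without the 3 arrays that stood apart the counts were again 24 and 5, with 25.4% and 16.6% of all genes. Those arrays were of P15 and P25, so leaving them out could not change any P40 minus P7 difference. Only the error estimates could change, so the equal counts do not test the differences themselves. All 3 P40 arrays lay above all 3 P7 arrays for 26 members (33.1% of all genes) and below them for 5 (22.6%). The F test for any difference between ages passed for 32 members, against 47.2% of all genes. The 5 members that fell were Pfkp, Ldha, Slc16a7, Cs and Idh1.

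**Figure D1:**
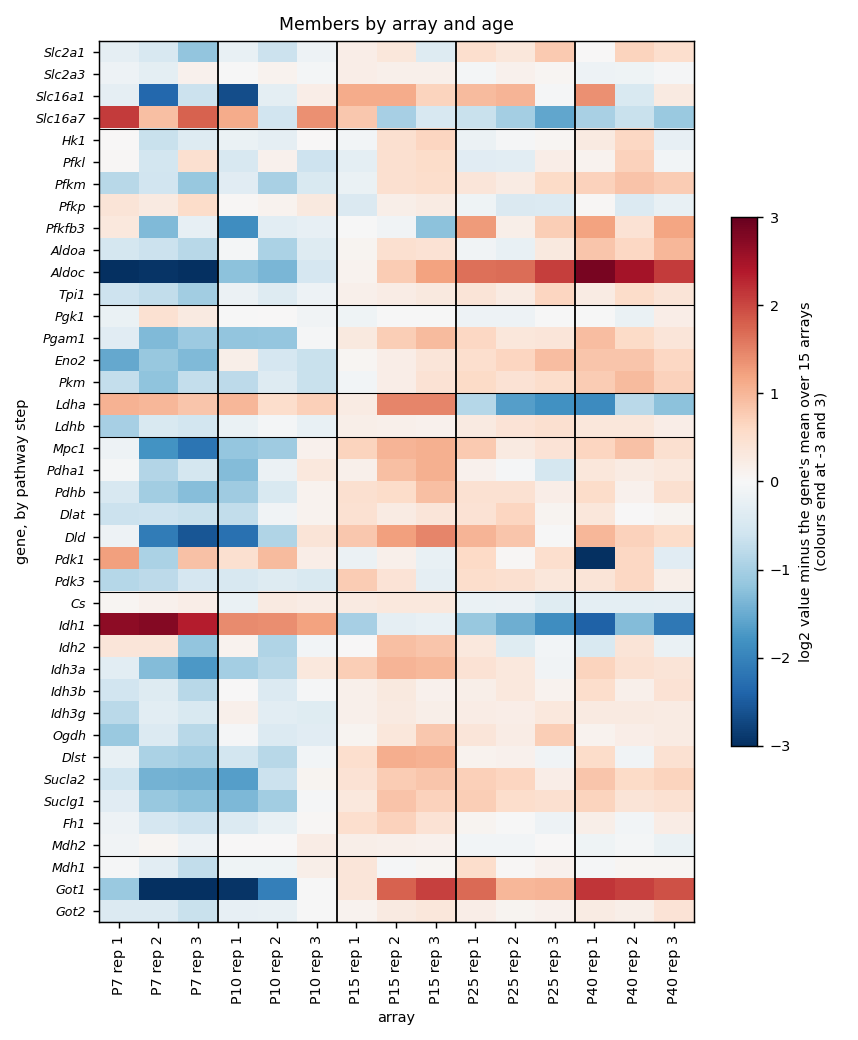
Log2 value minus the gene's own mean over 15 arrays, for the 40 tested members (rows, grouped by pathway step) on each array (columns, grouped by age); red is above the gene's mean, blue below, and the colours end at -3 and 3. Most rows run from blue at P7 to red at later ages, and Idh1, Ldha and Slc16a7 run the other way.

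The counts of rises and falls by pathway step are given beside the 27.5% and 17.6% of all genes. In transport 1 of 4 tested members rose and 1 fell, with a median difference of 0.51. In upper glycolysis, down to triose phosphate, 4 of 8 rose and 1 fell (median 1.27), and in lower glycolysis 3 of 4 rose and none fell (median 1.61). Of the pyruvate entry genes, 5 of 7 rose and none fell (median 1.12). In the TCA cycle group, which also holds the NADP-linked Idh1 and Idh2, 8 of 12 rose and Idh1 and Cs fell (median 0.88), and 2 of the 3 other shuttle genes rose (median 0.77). Each median exceeded the 0.18 of all genes tested, and the 2 lactate dehydrogenase genes moved apart. No test between steps was made.

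**Figure D2:**
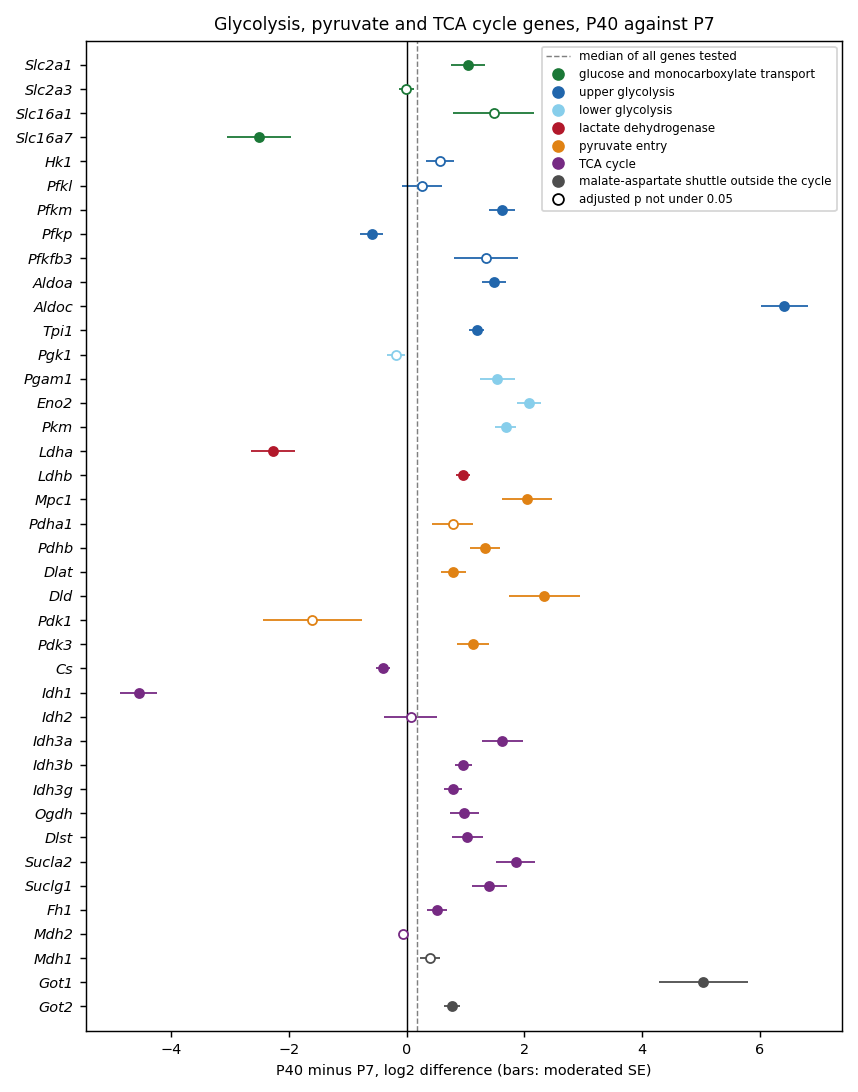
P40 minus P7 log2 difference (horizontal axis) for each tested member, coloured by pathway step; bars are the moderated standard error, open symbols have an adjusted p not under 0.05, and the dashed line is the median of all genes tested, 0.18. Aldoc (6.42) and Got1 (5.04) lie farthest to the right and Idh1 (-4.56) farthest to the left.

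The RNA controls moved with age as well, and this touches every difference below. Gapdh, the glyceraldehyde-3-phosphate dehydrogenase of lower glycolysis, is one of these controls, with probe sets at 3 places along its transcript. In order of age, the 3′ probe set averaged 14.09 ± 0.11, 14.32 ± 0.04, 14.63 ± 0.07, 14.60 ± 0.09 and 14.73 ± 0.10 (SD, n = 3 each). The 5′ probe set averaged 9.64 ± 0.43, 9.95 ± 1.00, 11.76 ± 0.78, 11.07 ± 0.61 and 11.43 ± 0.82. The P40 arrays lay above the P7 arrays at both places, and the gap between the ends was 4.45 ± 0.53 at P7, 2.87 ± 0.73 at P15 and 3.30 ± 0.81 at P40. A smaller gap is commonly read as a sign of longer amplified RNA. Gapdh was not part of the fit, so its difference has no adjusted p. The same gap measured on beta-actin, 5.77 ± 0.98 at P7, 4.50 ± 1.29 at P15 and 3.93 ± 0.55 at P40, is called the actin gap below. With the actin gap as a covariate, 16 members rose and 4 fell between P7 and P40 (14.2% and 13.3% of all genes).

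**Figure D3:**
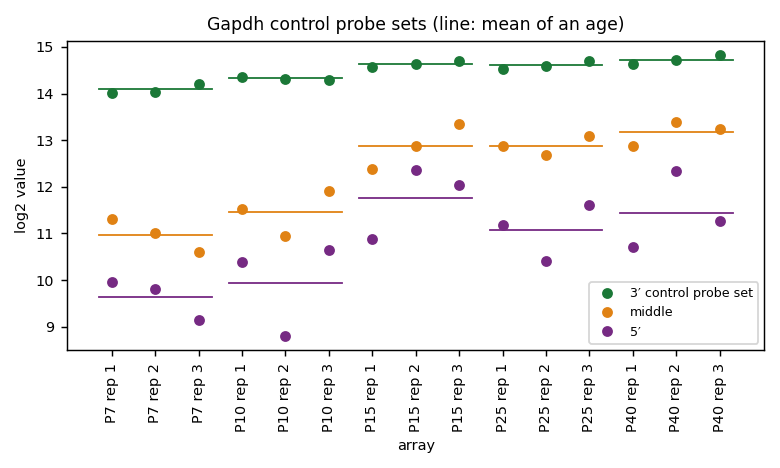
Log2 values (vertical axis) of the Gapdh 3′, middle and 5′ control probe sets on each array (horizontal axis), with a line at the mean of each age. The 3′ values rise by little, from a mean of 14.09 at P7 to 14.73 at P40, while the middle probe set moves from 10.97 to 13.17 and the 5′ one from 9.64 to 11.43.

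Transport came first in the order of the pathway. Slc2a3 (GLUT3), the main neuronal glucose transporter, read 12.75, 12.60 and 13.03 at P7, 12.88, 12.99 and 12.84 at P10, 13.09, 13.06 and 13.04 at P15, 12.84, 13.02 and 12.95 at P25, and 12.74, 12.76 and 12.85 at P40. P7 and P40 overlapped, and the P40 minus P7 difference was -0.01 (SE 0.13, limma adjusted p = 0.94). Slc2a1 (GLUT1), the transporter typical of the blood-brain barrier and glia, read 9.78, 9.58 and 8.86 at P7, 9.84, 9.41 and 9.91 at P10, 10.26, 10.39 and 9.66 at P15, 10.56, 10.39 and 10.84 at P25, and 10.07, 10.72 and 10.55 at P40. All P40 arrays lay above all P7 arrays, and Slc2a1 rose 2.06-fold (log2 1.04, SE 0.29, limma adjusted p = 0.0089). With the actin gap as a covariate the difference was 0.92 (adjusted p = 0.091), and with the number of cells picked it was 0.81 (adjusted p = 0.051). Of 8 endothelial and mural markers, 7 never exceeded 5, and the summed level of the list on the linear scale was 61.0 to 83.8 at P7 and 48.3 to 52.8 at P40. Slc2a1 had its highest mean at P25 (10.60), as did the oligodendrocyte genes Mbp (11.21) and Mobp (7.47), while Cnp had its highest at P7 (10.75). The part of vascular or glial cells in the rise of Slc2a1 was not tested.

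The monocarboxylate transporters carry lactate and pyruvate across the cell membrane. Slc16a7 (MCT2), the high-affinity form known from neurons, read 8.22, 7.04 and 7.89 at P7, 7.25, 5.56 and 7.51 at P10, 6.93, 5.13 and 5.64 at P15, 5.45, 5.12 and 4.56 at P25, and 5.16, 5.46 and 5.01 at P40. The P40 arrays, close to the limit of 5, lay below every P7 array, and Slc16a7 fell 5.68-fold (log2 -2.51, SE 0.54, limma adjusted p = 0.0017). Slc16a1 (MCT1), known from glia and endothelium, read 7.49, 5.40 and 7.11 at P7, 5.08, 7.46 and 7.95 at P10, 8.87, 8.86 and 8.41 at P15, 8.70, 8.76 and 7.71 at P25, and 9.13, 7.30 and 8.01 at P40. P7 and P40 overlapped, and the difference of 1.48 (SE 0.69) did not pass (limma adjusted p = 0.097). It passed without P10 replicate 1 and with array weights (1.87). Within arrays, the log2 difference Slc16a7 minus Slc16a1 was 3.64 lower at P25 and P40 than at P7 and P10.

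That comparison of 2 genes on the same array was made for isoforms and subunits of each step. Of 20 pairs listed, 15 had both genes tested, and 6 arrays of P25 and P40 were set against 6 of P7 and P10 with an exact two-sided permutation test over 924 arrangements. The smallest p it can give is 0.0022. Benjamini-Hochberg adjustment ran over the 15 pairs, and 12 changed at an adjusted p under 0.05. Probe sets differ in brightness, so only the change of a difference is read, not its level. For Slc16a7 and Slc16a1 the difference ran from -1.90 to 2.17 in the younger and from -3.97 to -1.84 in the older arrays, which overlap by 1 array on each side (exact p = 0.0043, adjusted 0.0072). For Slc2a3 against Slc2a1 it was 0.95 lower in the older arrays, without overlap (exact p = 0.0022, adjusted 0.0046).

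**Figure D4:**
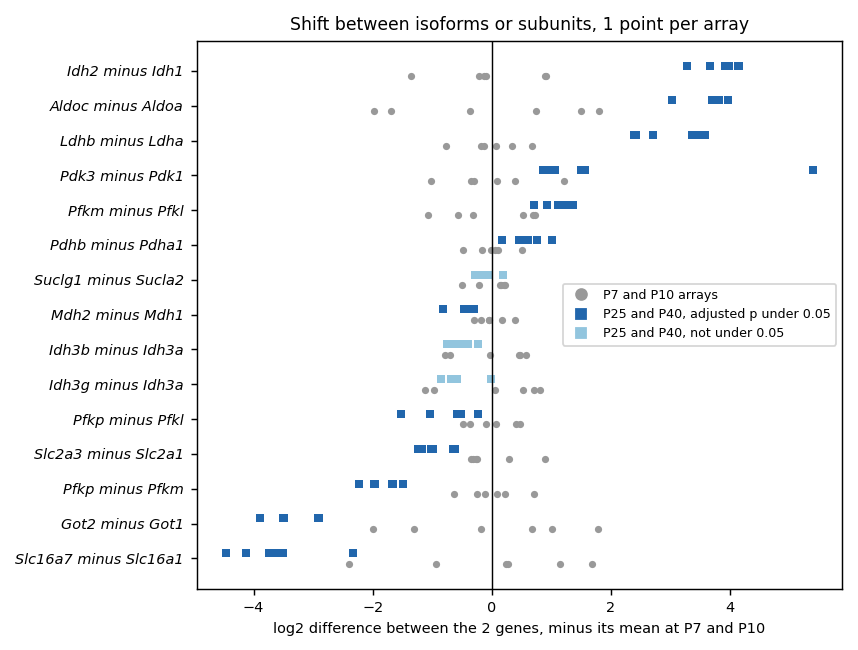
For each of the 15 pairs, the log2 difference between the 2 genes on each array (points) minus its mean over the P7 and P10 arrays; circles are P7 and P10, squares are P25 and P40, and dark squares mark an adjusted p under 0.05 (exact permutation test, 6 against 6 arrays). Idh2 minus Idh1, Aldoc minus Aldoa and Ldhb minus Ldha shift upward with no overlap, and Got2 minus Got1 and Pfkp minus Pfkm shift downward with no overlap.

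Upper glycolysis began with hexokinase, which phosphorylates glucose and traps it in the cell. Hk1, the form bound to brain mitochondria, read 12.20, 11.54 and 11.80 at P7, 11.99, 11.93 and 12.20 at P10, 12.12, 12.68 and 12.84 at P15, 12.01, 12.16 and 12.26 at P25, and 12.46, 12.81 and 11.95 at P40. P7 and P40 overlapped, and the difference between them was 0.56 (SE 0.24, limma adjusted p = 0.066). It passed without P7 replicate 1, without P15 replicate 1 or without P40 replicate 3. The second usable probe set of Hk1, near the limit, moved by 1.24. The mean of its probe sets gave 0.90, which did not pass. Hk2 stayed between 2.74 and 3.51 on all arrays, below the limit, and was not tested.

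Phosphofructokinase commits glucose to glycolysis and works as tetramers of muscle (Pfkm), liver (Pfkl) and platelet (Pfkp) subunits. Pfkm read 11.33, 11.58 and 11.02 at P7, 11.83, 11.19 and 11.71 at P10, 11.96, 12.63 and 12.69 at P15, 12.53, 12.41 and 12.74 at P25, and 12.86, 13.01 and 12.91 at P40. Every P40 array exceeded every P7 array, and Pfkm rose 3.07-fold (log2 1.62, SE 0.22, limma adjusted p = 4.3e-05). Pfkp read 12.71, 12.61 and 12.88 at P7, 12.36, 12.43 and 12.62 at P10, 11.90, 12.52 and 12.58 at P15, 12.20, 11.89 and 11.92 at P25, and 12.36, 11.93 and 12.11 at P40. Its P40 arrays lay below its P7 arrays by little, a fall of 1.52-fold (log2 -0.60, SE 0.19, limma adjusted p = 0.018). The call for Pfkp was lost without P7 replicate 3 (-0.53, adjusted p = 0.065) and without P40 replicate 2 (-0.50, adjusted p = 0.074). Its second usable probe set moved by -4.73, so the size of the fall depends on the probe set read, and the mean of the Pfkp probe sets gave -2.67.

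The liver subunit gene Pfkl read 9.63, 9.04 and 10.08 at P7, 9.13, 9.74 and 8.98 at P10, 9.30, 10.09 and 10.15 at P15, 9.27, 9.29 and 9.80 at P25, and 9.71, 10.29 and 9.53 at P40. P7 and P40 overlapped, with a difference of 0.26 (SE 0.34, limma adjusted p = 0.56). It was -0.15 with the actin gap as a covariate and -0.01 without P7 replicate 2. The second usable probe set of Pfkl moved by 1.41, and the mean of its probe sets gave 0.83, which passed. The size of the Pfkl difference and its call therefore depend on the probe set read. Against Pfkm, Pfkp moved by -1.83 between the younger and older arrays, with no overlap (0.52 to 1.86 against -1.08 to -0.33; exact permutation p = 0.0022, adjusted 0.0046). Pfkm gained 1.09 on Pfkl (exact permutation p = 0.0043, adjusted 0.0072), and Pfkp lost 0.75 (exact permutation p = 0.013, adjusted 0.016), both with overlapping arrays. With the mean of each gene's probe sets these changes were 0.62 (exact permutation p = 0.028) for Pfkm against Pfkl, -3.56 for Pfkp against Pfkl and -4.18 for Pfkp against Pfkm. Pfkfb3, which makes the activator fructose 2,6-bisphosphate, was near the limit, with age means of 4.82 ± 0.83 at P7 and 6.17 ± 0.44 at P40 (SD, n = 3 each). Its difference of 1.35 (SE 0.54) did not pass (limma adjusted p = 0.053). It passed with array weights (1.73) and with values under 5 set to 5 (0.99). It also passed without P7 replicate 1, P10 replicate 1, P15 replicate 3 or P40 replicate 2.

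Aldolase, which cleaves fructose 1,6-bisphosphate, gave the largest rise of the list. Aldoc, the brain form, read 5.92, 7.42 and 5.91 at P7, 9.13, 8.99 and 9.85 at P10, 10.45, 11.11 and 11.57 at P15, 12.01, 12.02 and 12.43 at P25, and 13.21, 12.85 and 12.46 at P40. All later arrays lay above all P7 arrays, and each age mean exceeded the one before. Aldoc rose 85.6-fold between P7 and P40 (log2 6.42, SE 0.40, limma adjusted p = 3.2e-08). It rose 7.47-fold from P7 to P10 (log2 2.90, SE 0.40, adjusted p = 0.00065) and 3.3-fold from P10 to P15 (log2 1.72, SE 0.40, adjusted p = 0.017), and the later steps did not pass. The P10 to P15 call was lost in 7 of 26 alternatives, with 1.13 (adjusted p = 0.59) without the 3 arrays that stood apart. Aldoa, the form found in most tissues, read 13.39, 13.28 and 13.09 at P7, 13.86, 12.98 and 13.53 at P10, 14.00, 14.39 and 14.35 at P15, 13.81, 13.70 and 14.21 at P25, and 14.74, 14.53 and 14.92 at P40. Its P40 arrays exceeded its P7 arrays, a rise of 2.78-fold (log2 1.48, SE 0.20, limma adjusted p = 3.8e-05). The usable Aldoa probe sets moved by 1.48, 1.33, 0.15, 1.40 and 2.81, and their mean by 1.43. The size of the Aldoa rise therefore depends on the probe set read. Aldoc gained 3.66 on Aldoa, from -7.47 to -3.69 in the younger arrays to -2.46 to -1.53 in the older (exact permutation p = 0.0022, adjusted 0.0046).

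In adult cortex Aldoc is also known as an astrocyte gene, and astrocyte markers were measured beside it. Of 12 markers listed, 11 were measured, and 7 exceeded 5 on at least 3 arrays. The 7 were Glul (15 arrays), Slc1a2 and S100b (7 each), Slc1a3 (4), and Aqp4, Gja1 and Sox9 (3 each). Aldh1l1 and Fgfr3 exceeded 5 on 1 array each, and Gfap and Gjb6 never did. The summed level of the list on the linear scale ran from 1270 to 1740 on the P7 arrays and from 2020 to 2540 on the P10 arrays. It was 735 to 1060 in the P15 group, 2290 to 3300 in the P25 group and 1310 to 1630 in the P40 group. Aldoc was highest at P40, where the list lay inside its P7 range. In order of age, Slc1a2 averaged 4.85, 8.44, 4.07, 6.86 and 3.50, and Gja1 averaged 3.65, 6.94, 3.15, 5.55 and 3.08. Aqp4 averaged 2.66, 4.48, 2.60, 3.84 and 2.55. From P7 to P10, the largest step of Aldoc, each of these means rose, while S100b, also on the list, averaged 3.46 and 3.49. Over the whole span S100b rose with Aldoc, from 3.46 at P7 to 7.43 at P25 and 5.96 at P40 (SE of P40 minus P7 0.82, limma adjusted p = 0.023). Slc1a2 was lower at P40 than at P7 (-1.35, SE 0.41, limma adjusted p = 0.015), but near background. It read 3.89, 4.87 and 5.79 at P7 and 3.49 to 3.51 at P40, and of these only 5.79 exceeded the limit of 5. Glul, a glutamine synthetase gene, was the brightest of the list, between 9.31 and 11.06 on all arrays and at 10.32 at P40. Most of the summed level on each array came from Glul, so the sum mainly follows this 1 gene. The part of astrocytes in the rise of Aldoc was not tested.

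Triose phosphate isomerase interconverts the products of aldolase. Tpi1 had age means from 13.52 ± 0.21 at P7 to 14.70 ± 0.16 at P40 (SD, n = 3 each), without overlap between these ages, and rose 2.27-fold (log2 1.19, SE 0.13, limma adjusted p = 5.8e-06). It was also called in the P7 to P10 step (0.57) and the P10 to P15 step (0.45), calls that were lost in 8 and 13 of 26 alternatives, with 0.41 to 0.66 and 0.18 to 0.96 over all of them.

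**Figure D5:**
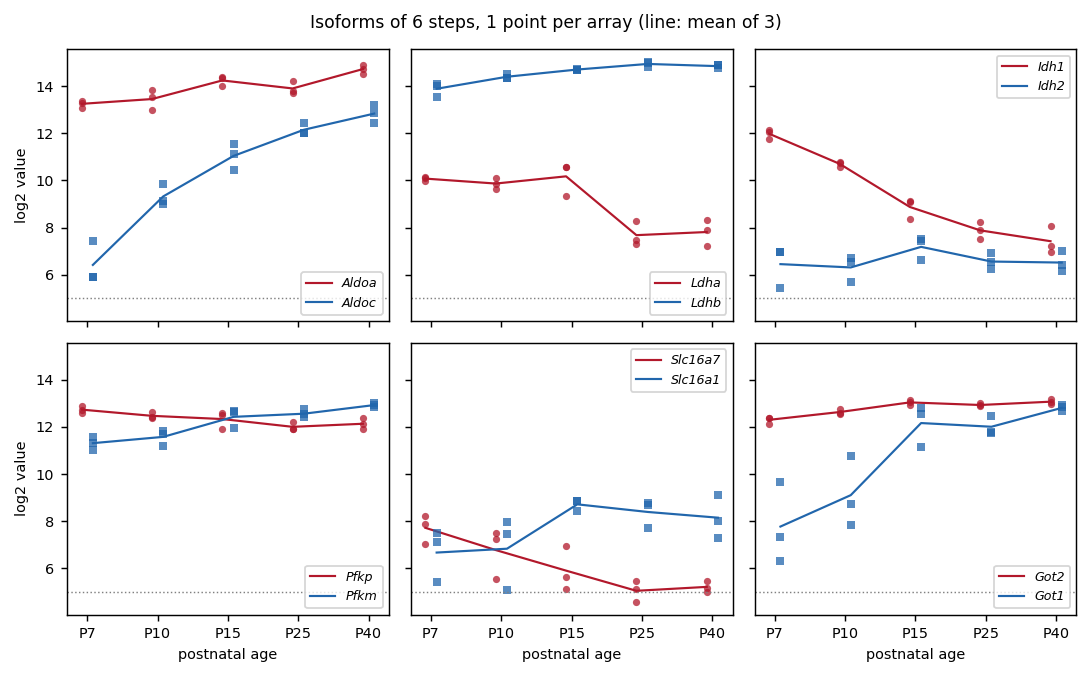
Log2 values (vertical axis) of both isoforms of 6 steps at each age (horizontal axis), with 1 point per array, a line through the means of 3 and a dotted line at the limit of 5. The mean of Idh1 is lower at each age than at the one before, with P25 and P40 overlapping, while the ages of Idh2 overlap, Ldha drops between P15 and P25, and Aldoc and Got1 climb from the lowest values of their panels at P7.

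In lower glycolysis, Eno2 encodes the neuron-specific enolase. Eno2 read 10.84, 11.24 and 11.05 at P7, 12.55, 11.86 and 11.70 at P10, 12.43, 12.56 and 12.73 at P15, 12.88, 13.01 and 13.29 at P25, and 13.19, 13.20 and 12.98 at P40. Each P40 array exceeded each P7 array, and Eno2 rose 4.23-fold (log2 2.08, SE 0.20, limma adjusted p = 2.1e-06), with a call already from P7 to P10 (1.00, SE 0.20, adjusted p = 0.013). Pkm, the pyruvate kinase that makes ATP and pyruvate in the last step, read 11.66, 11.16 and 11.67 at P7, 11.59, 11.99 and 11.72 at P10, 12.30, 12.57 and 12.81 at P15, 12.95, 12.80 and 12.91 at P25, and 13.13, 13.33 and 13.06 at P40. Its P7 and P40 arrays did not overlap, and Pkm rose 3.20-fold (log2 1.68, SE 0.18, limma adjusted p = 4.6e-06). Pkm was read from 1 probe set, and its splice forms were not separated.

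Pgam1, phosphoglycerate mutase, rose 2.91-fold from 12.48 ± 0.51 to 14.02 ± 0.28 (SD, n = 3 each; log2 1.54, SE 0.30, limma adjusted p = 0.00078), and its difference was 0.86 with the actin gap as a covariate. Pgk1, phosphoglycerate kinase, was the exception of this step, at 13.69 ± 0.34 and 13.50 ± 0.20 (difference -0.18, SE 0.15, limma adjusted p = 0.34). Its usable probe sets moved by -0.18, -0.25 and 1.16, so the sign of Pgk1 depends on which is read. The mean of its probe sets gave 0.24, and the actin gap as a covariate gave 0.01. Without P7 replicate 1 the difference was -0.37, which passed.

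The lactate dehydrogenase genes moved in opposite directions. The enzyme is a tetramer of A (Ldha) and B (Ldhb) subunits, and the A-rich forms are known from tissues that export lactate. Ldha read 10.16, 10.12 and 9.96 at P7, 10.12, 9.65 and 9.84 at P10, 9.36, 10.58 and 10.59 at P15, 8.28, 7.46 and 7.30 at P25, and 7.23, 8.32 and 7.89 at P40. All arrays of P7, P10 and P15 lay above all arrays of P25 and P40. Ldha fell 4.82-fold from P7 to P40 (log2 -2.27, SE 0.37, limma adjusted p = 0.0002). The fall lay in 1 step, from P15 to P25, at 5.65-fold (log2 -2.50, SE 0.37, adjusted p = 0.0016), and no other step passed. Without the 3 arrays that stood apart that step was -1.57 (adjusted p = 0.33). P15 replicate 1, the P15 array left in, read 9.36.

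Ldhb read 13.56, 14.11 and 14.01 at P7, 14.36, 14.50 and 14.35 at P10, 14.74, 14.71 and 14.68 at P15, 14.82, 14.98 and 15.04 at P25, and 14.89, 14.91 and 14.76 at P40. Its P40 arrays exceeded its P7 arrays, a rise of 1.94-fold (log2 0.96, SE 0.12, limma adjusted p = 2.4e-05), with a call from P7 to P10 (0.51) that was lost in 7 of 26 alternatives, among them leaving out P7 replicate 1 (0.34) or any 1 P10 array. Ldhb was near the top of the array's range, and its 4 usable probe sets moved by 0.96, 1.64, 1.82 and 2.08, the brightest by the least. The mean of the Ldhb probe sets gave 1.62. Ldhb gained 2.99 on Ldha, a ratio shift of 7.92-fold, from 3.39 to 4.84 in the younger to 6.55 to 7.75 in the older arrays (exact permutation p = 0.0022, adjusted 0.0046). At P15, Ldhb minus Ldha was 5.38 on replicate 1 and 4.14 and 4.09 on replicates 2 and 3, the arrays with low spike controls.

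The 250 bases before a start of each gene are shown because Ldha and Ldhb moved in opposite directions. RefSeq lists 2 starts for Ldha, and the one with more matches to the motif below was chosen. The window of the other, chr7:46846832-46847131, holds no match, so the contrast with Ldhb rests on that choice. Both come from RefSeq, build GRCm38.p6, and are written 5′ to 3′ along the gene. The Ldha stretch lies at chr7:46845554-46845803 on the plus strand and the Ldhb stretch at chr6:142507958-142508207 on the minus strand. Capitals mark matches to ACGTG on either strand, the core of the element bound by hypoxia-inducible factors.
Ldha: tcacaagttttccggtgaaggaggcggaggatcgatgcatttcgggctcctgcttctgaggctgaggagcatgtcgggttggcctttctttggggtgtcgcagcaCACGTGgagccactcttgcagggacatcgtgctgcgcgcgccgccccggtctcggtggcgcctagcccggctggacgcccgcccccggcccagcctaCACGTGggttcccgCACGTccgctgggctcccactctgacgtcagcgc
Ldhb: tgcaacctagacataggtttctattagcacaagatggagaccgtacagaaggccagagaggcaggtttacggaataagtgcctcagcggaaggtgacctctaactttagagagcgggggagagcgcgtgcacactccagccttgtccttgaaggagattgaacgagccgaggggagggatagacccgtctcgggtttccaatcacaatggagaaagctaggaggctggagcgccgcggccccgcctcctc
The Ldha stretch holds 5 matches covering 17 bases, including both strands of 2 palindromic E-boxes (CACGTG), and the Ldhb stretch holds none. In the full windows, which reach 50 bases past the start, ACGTG lay in 27 of 64 windows of 43 member genes (42.2%) and in 19.6% of all 32851 windows. CACGTG, which contains ACGTG, lay in 8 windows (12.5%, against 7.15%), and the GC box GGGCGG in 38 (59.4%, against 35.7%). Windows of one gene can overlap, and a match is a description of the letters, not of a bound site. By gene, ACGTG lay in 19 of the 43 members with an entry (44.2%, against 21.8% of all genes). It lay in 10 of the 23 that rose (43.5%) and in 1 of the 4 that fell. The GC box lay in 69.8% of the members, against 38.2% of all genes. These shares were not matched for base content, which was 67% G and C in the Ldha stretch and 56% in the Ldhb stretch.

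Pyruvate entry followed. Mpc1, a subunit of the mitochondrial pyruvate carrier, read 11.40, 9.74 and 9.36 at P7, 10.39, 10.47 and 11.66 at P10, 12.21, 12.57 and 12.60 at P15, 12.32, 11.81 and 11.95 at P25, and 12.19, 12.43 and 12.01 at P40. P7 replicate 1 was well above the other P7 arrays, yet no P7 array reached a P40 array. Mpc1 rose 4.12-fold (log2 2.04, SE 0.43, limma adjusted p = 0.0013). Without P7 replicate 1 the difference was 2.66, and with the actin gap as a covariate it was 1.09 (adjusted p = 0.069).

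Pyruvate dehydrogenase joins 3 enzymes, of which E1 is built from Pdha1 and Pdhb. Pdha1 read 12.10, 11.28 and 11.63 at P7, 10.84, 11.98 and 12.46 at P10, 12.30, 13.06 and 13.21 at P15, 12.27, 12.12 and 11.62 at P25, and 12.49, 12.39 and 12.47 at P40. P7 and P40 did not overlap, but the difference of 0.78 (SE 0.35) did not pass (limma adjusted p = 0.085). It passed without P7 replicate 1, without P10 replicate 1 and with array weights (0.91). Pdhb read 12.11, 11.54 and 11.30 at P7, 11.52, 12.13 and 12.68 at P10, 13.07, 13.14 and 13.49 at P15, 13.03, 13.04 and 12.79 at P25, and 13.13, 12.72 and 13.07 at P40. Its P40 arrays exceeded its P7 arrays, and Pdhb rose 2.51-fold (log2 1.33, SE 0.26, limma adjusted p = 0.00086). Pdhb gained 0.58 on Pdha1 between the younger and older arrays, with overlap (exact permutation p = 0.0087, adjusted 0.012).

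Dld encodes E3, the dihydrolipoyl dehydrogenase shared with the 2-oxoglutarate dehydrogenase complex. It read 10.57, 8.63 and 8.16 at P7, 8.47, 9.82 and 11.11 at P10, 11.52, 11.94 and 12.17 at P15, 11.73, 11.54 and 10.70 at P25, and 11.71, 11.41 and 11.27 at P40. P10 replicate 3 overlapped with P25, but no P7 array reached P40. Dld rose 5.07-fold (log2 2.34, SE 0.61, limma adjusted p = 0.0058). The difference was 3.07 without P7 replicate 1, 1.5 with cells picked as a covariate and 1.32 with the actin gap (adjusted p = 0.18). Dlat, the E2 of the complex, rose 1.73-fold (log2 0.79, SE 0.21, limma adjusted p = 0.0069), and the mean of its 3 usable probe sets gave 0.40 (adjusted p = 0.18).

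Pyruvate dehydrogenase kinases phosphorylate and inhibit E1. Pdk3 read 7.81, 7.88 and 8.15 at P7, 8.18, 8.27 and 8.21 at P10, 9.43, 9.08 and 8.39 at P15, 9.19, 9.14 and 9.00 at P25, and 9.05, 9.29 and 8.84 at P40. All P40 arrays exceeded all P7 arrays, and Pdk3 rose 2.17-fold (log2 1.12, SE 0.27, limma adjusted p = 0.0036). Pdk1 read 9.47, 7.30 and 9.12 at P7, 8.72, 9.19 and 8.44 at P10, 8.06, 8.39 and 8.03 at P15, 8.85, 8.27 and 8.75 at P25, and 4.28, 8.87 and 7.91 at P40. P40 replicate 1 stood alone below the limit of 5, and the difference of -1.61 (SE 0.84) did not pass (limma adjusted p = 0.13). It was -0.24 without P40 replicate 1 and passed without P40 replicate 2, at -2.54 (adjusted p = 0.024). Pdk3 gained 1.89 on Pdk1 (exact permutation p = 0.0087, adjusted 0.012), and 1.19 without P40 replicate 1. Pdk2, another of these kinases, stayed between 3.29 and 5.02 and was not tested.

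The TCA cycle begins with citrate synthase. Cs read 14.29, 14.37 and 14.44 at P7, 14.03, 14.52 and 14.46 at P10, 14.50, 14.55 and 14.56 at P15, 14.04, 14.07 and 13.88 at P25, and 13.95, 13.95 and 13.98 at P40. Each P40 array lay below each P7 array by little, a fall of 1.32-fold (log2 -0.41, SE 0.12, limma adjusted p = 0.011), with a call from P15 to P25 (-0.54, SE 0.12, adjusted p = 0.017). That step lost its call without P15 replicate 2 or 3, without P25 replicate 3 and without the 3 arrays, at -0.53 to -0.48. The other 2 usable probe sets of Cs moved by 0.09 and 0.50, and their mean with the first by 0.06 (adjusted p = 0.8). With the actin gap as a covariate it was -0.38 (adjusted p = 0.086). The direction of Cs therefore depends on the probe set read.

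Isocitrate dehydrogenase has an NADP-linked cytosolic form (Idh1), an NADP-linked mitochondrial form (Idh2) and the NAD-linked enzyme of the cycle proper (Idh3a, Idh3b, Idh3g). Idh1 read 12.07, 12.14 and 11.74 at P7, 10.79, 10.76 and 10.58 at P10, 8.38, 9.10 and 9.15 at P15, 8.23, 7.91 and 7.51 at P25, and 6.96, 8.07 and 7.24 at P40. Each age mean was below the one before, and the P7 and P10 arrays lay above all later arrays. Idh1 fell 23.6-fold (log2 -4.56, SE 0.31, limma adjusted p = 8e-08), the largest fall of the list. It fell 2.42-fold from P7 to P10 (log2 -1.28, SE 0.31, adjusted p = 0.034) and 3.56-fold from P10 to P15 (log2 -1.83, SE 0.31, adjusted p = 0.0042), and the later steps did not pass. The first of these calls was lost in 8 of 26 alternatives, with differences of -1.72 to -1.20. It was lost without P7 replicate 1 or 2, without any 1 P10 array, without a filter, with the mean of probe sets and without the 3 arrays that stood apart. The second was lost with the mean of probe sets (-1.19), with cells picked (-1.71) and without the 3 arrays (-2.32). Its second usable probe set moved by -5.23.

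Idh2 read 6.97, 6.96 and 5.42 at P7, 6.72, 5.69 and 6.52 at P10, 6.61, 7.51 and 7.43 at P15, 6.92, 6.23 and 6.53 at P25, and 6.15, 7.0 and 6.40 at P40. All ages overlapped, with a difference of 0.07 (SE 0.45, limma adjusted p = 0.91) whose sign turned in several alternatives, among them -0.15 after quantile normalization and -0.73 with the actin gap as a covariate. Idh2 gained 3.85 on Idh1, from -6.32 to -4.06 in the younger to -1.69 to -0.82 in the older arrays (exact permutation p = 0.0022, adjusted 0.0046).

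The NAD-linked subunits all rose. Idh3a, the catalytic subunit, rose 3.08-fold from 10.70 ± 0.73 to 12.32 ± 0.13 (SD, n = 3 each; log2 1.62, SE 0.35, limma adjusted p = 0.0016), with a difference of 1.04 (adjusted p = 0.069) with the actin gap as a covariate. Idh3b rose 1.95-fold (log2 0.96, SE 0.14, adjusted p = 8.7e-05) and Idh3g 1.73-fold (log2 0.79, SE 0.15, adjusted p = 0.00059), and the mean of the Idh3g probe sets gave 1.41. Their differences from Idh3a did not pass. Idh3b minus Idh3a was 1.91 to 3.28 in the younger and 1.94 to 2.47 in the older arrays (change -0.52, exact permutation p = 0.089, adjusted 0.10). Idh3g minus Idh3a was 0.95 to 2.88 and 1.21 to 2.05 (change -0.57, exact permutation p = 0.15, adjusted 0.16). The SD of these differences was 0.61 and 0.85 in the younger arrays and 0.19 and 0.28 in the older ones. Idh3b minus Idh3a passed in 3 alternatives, with changes of -0.33 to -0.68, and Idh3g minus Idh3a in 1, without P10 replicate 3 (-0.79).

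The 2-oxoglutarate dehydrogenase complex comes next. Ogdh, its E1, read 9.24, 9.94 and 9.54 at P7, 10.33, 9.96 and 10.03 at P10, 10.44, 10.71 and 11.18 at P15, 10.72, 10.58 and 11.10 at P25, and 10.47, 10.56 and 10.61 at P40. P7 and P40 did not overlap, and Ogdh rose 1.97-fold (log2 0.98, SE 0.24, limma adjusted p = 0.0047), with 0.88 (adjusted p = 0.058) with the actin gap as a covariate. Dlst, its E2, rose 2.04-fold (log2 1.03, SE 0.27, limma adjusted p = 0.0061). The Dlst difference was 0.62 (adjusted p = 0.062) as a mean of probe sets and 0.61 (adjusted p = 0.17) with the actin gap as a covariate.

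Succinyl-CoA ligase pairs Suclg1 with either the ATP-forming Sucla2 or a GTP-forming partner. Sucla2 read 12.20, 11.37 and 11.36 at P7, 11.14, 12.15 and 12.88 at P10, 13.23, 13.57 and 13.64 at P15, 13.50, 13.44 and 13.00 at P25, and 13.64, 13.37 and 13.46 at P40. Its P40 arrays exceeded its P7 arrays, and Sucla2 rose 3.61-fold (log2 1.85, SE 0.33, limma adjusted p = 0.00045). Suclg1 rose 2.65-fold (log2 1.40, SE 0.30, adjusted p = 0.0016), and 0.86 (adjusted p = 0.07) remained with the actin gap as a covariate. Suclg1 minus Sucla2 ran from -1.60 to -0.88 in the younger and from -1.39 to -0.91 in the older arrays (change -0.15, exact permutation p = 0.28, adjusted 0.28). Fh1, fumarase, rose 1.44-fold (log2 0.52, SE 0.17, limma adjusted p = 0.024). The Fh1 call was lost without P7 replicate 2 or 3 and without P40 replicate 1 or 3, with differences of 0.43 to 0.49, and in 4 other alternatives with 0.31 to 0.40.

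Malate dehydrogenase closes the cycle in mitochondria (Mdh2) and serves the shuttle in the cytosol (Mdh1). Mdh2 read 14.81, 14.99 and 14.78 at P7, 14.95, 14.95 and 15.14 at P10, 15.11, 15.09 and 15.05 at P15, 14.85, 14.84 and 14.94 at P25, and 14.80, 14.87 and 14.73 at P40. P7 and P40 overlapped, with a difference of -0.06 (SE 0.08, limma adjusted p = 0.61), and of 0.12 as a mean of its probe sets. Mdh1 read 15.23, 14.93 and 14.52 at P7, 15.12, 15.12 and 15.44 at P10, 15.63, 15.23 and 15.31 at P15, 15.79, 15.30 and 15.38 at P25, and 15.23, 15.32 and 15.32 at P40. P7 replicate 1 was as high as the lowest P40 array, and the difference of 0.40 (SE 0.17) did not pass (limma adjusted p = 0.068). It passed without P7 replicate 1, after quantile normalization (0.45), with array weights (0.41) and with the mean of probe sets (0.63). The usable probe sets of Mdh1 moved by 0.40, 0.20 and 1.28, so its size and call depend on the probe set read. Mdh2 lost 0.43 against Mdh1 (exact permutation p = 0.0022, adjusted 0.0046), the younger arrays reaching down to -0.42 and the older up to -0.42. Both genes are near the top of the array's range.

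The aspartate aminotransferases complete the shuttle. Got1, the cytosolic form, read 9.66, 7.34 and 6.31 at P7, 7.84, 8.72 and 10.75 at P10, 11.14, 12.53 and 12.82 at P15, 12.46, 11.76 and 11.80 at P25, and 12.91, 12.83 and 12.68 at P40. P7 replicate 1 and P10 replicate 3 were well above the others of their age, and no P7 or P10 array reached the P15 arrays. Got1 rose 32.9-fold (log2 5.04, SE 0.76, limma adjusted p = 9.8e-05), the largest rise after Aldoc. It was 5.98 without P7 replicate 1 and 4.31 without P7 replicate 3, and it was 3.97 with cells picked and 3.26 with the actin gap as a covariate. The step from P10 to P15 alone was 8.33-fold (log2 3.06, SE 0.76, adjusted p = 0.023), and it was lost in 8 of 26 alternatives, with 1.18 with cells picked, 1.87 with the actin gap and 2.03 without the 3 arrays.

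Got2, the mitochondrial form, read 12.39, 12.38 and 12.13 at P7, 12.54, 12.57 and 12.78 at P10, 12.91, 13.07 and 13.14 at P15, 13.00, 12.87 and 12.92 at P25, and 13.05, 12.96 and 13.20 at P40. Its P40 arrays exceeded its P7 arrays, and Got2 rose 1.71-fold (log2 0.77, SE 0.13, limma adjusted p = 0.00026). Got2 lost 3.43 against Got1, from 2.04 to 5.82 in the younger to 0.13 to 1.12 in the older arrays (exact permutation p = 0.0022, adjusted 0.0046). Of the 12 pairs that changed, 6 had no overlap between younger and older arrays, and Mdh2 with Mdh1 touched at 2 decimals.

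In time, most calls lay in the steps up to P15. From P7 to P10, 4 members rose (Aldoc, Tpi1, Eno2 and Ldhb; 2.37% of all genes) and Idh1 fell (1.23%). From P10 to P15, 15 rose (8.57%) and Idh1 fell (2.79%). These 15 were Pfkm, Aldoa, Aldoc, Tpi1, Pgam1, Pkm, Mpc1, Pdhb, Dld, Idh3a, Dlst, Sucla2, Suclg1, Fh1 and Got1. From P15 to P25, none rose (2.37%) and Ldha and Cs fell (2.49%), with 3 members higher at an unadjusted p under 0.05 in limma. From P25 to P40, none rose (0.404%) or fell (0.269%), with 1 higher and 0 lower at an unadjusted p under 0.05 in limma. Neighbouring steps share the arrays of the age between them, so their counts are not independent.

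The count of 15 rested on few arrays. It was 0 without P15 replicate 2 (1% of all genes called higher), 4 without P15 replicate 3 (2.11%), 4 without P10 replicate 2 (2.65%) and 7 without P10 replicate 1 (2.75%). Without the 3 arrays that stood apart it was 0 (0.114%), as it was with the actin gap (1.01%) or the cells picked (0.228%) as a covariate. With array weights it was 24 (23.7%). At an unadjusted p under 0.05 in limma, 26 members were higher from P10 to P15 on all arrays, 23 without P15 replicate 2, 9 without the 3 arrays, 21 with the actin gap and 12 with the cells picked. All 3 P15 arrays lay above all 3 P10 arrays for 23 members (20.9% of all genes).

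The highest age mean fell at P15 for 17 members (17.1% of all genes), at P40 for 11 (25.1%), at P25 for 7 (22%), at P7 for 4 (27.1%) and at P10 for 1 (8.73%). The 17 were Hk1, Pfkl, Pgam1, Ldha, Slc2a3, Slc16a1, Mpc1, Pdha1, Pdhb, Dld, Cs, Idh2, Idh3a, Dlst, Suclg1, Fh1 and Mdh2. The 11 were Pfkm, Pfkfb3, Aldoa, Aldoc, Eno2, Pkm, Idh3b, Idh3g, Sucla2, Got1 and Got2. No difference between pathway steps in the age of the peak was tested. P15 replicates 2 and 3 were among the arrays that stood apart, and the peak counts were not repeated without them. On P15 replicate 1, Ldha read 9.36, below its P7 mean of 10.08. Idh3a read 12.55 there, above its means at the other ages. A P15 peak can therefore rest on replicates 2 and 3 for some members. The P15 arrays held 23 to 45 cells, against 38 to 85 at the other ages, and had the smallest mean 3′ to 5′ gap of Gapdh, and the part of either in this peak was not tested. The lowest mean fell at P7 for 28 members (33.5%).

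Arrays of one age also differed in how many members they led. P7 replicate 1 was the highest of its 3 arrays for 23 of the 40 members (45.1% of all genes), and P10 replicate 3 for 23 (40.2%). These 2 arrays had the fewest cells of their age, 52 and 47. The arrays with the fewest cells of the other ages were P15 replicate 2 (23 cells), the highest for 11 members (42.1% of all genes), P25 replicate 1 (48 cells), for 20 (40.1%), and P40 replicate 1 (38 cells), for 15 (30.5%). On P7 replicate 1, Got1, Dld and Mpc1 read 9.66, 10.57 and 11.40, and the other P7 arrays reached at most 7.34, 8.63 and 9.74.

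Other genes of the same and joining pathways were listed from textbook roles. Of 57 listed, 50 had a probe set and 35 were tested, of which 16 rose, 4 fell and 15 did not pass between P7 and P40, with a median of 0.50. Over all genes tested 27.5% rose and 17.6% fell, with a median of 0.18. The 3 largest rises were in pyruvate metabolism. Pcx, pyruvate carboxylase, which refills the cycle with oxaloacetate, rose 9.58-fold from 6.77 ± 0.32 to 10.03 ± 0.20 (SD, n = 3 each; log2 3.26, SE 0.31, limma adjusted p = 1.8e-06). Pdhx, the E3-binding protein of pyruvate dehydrogenase, rose from 5.29 ± 1.07 to 7.89 ± 0.68 (log2 2.60, SE 0.72, adjusted p = 0.0087). Pdp1, the phosphatase that reverses the kinases, rose from 6.30 ± 1.02 to 8.62 ± 0.23 (log2 2.32, SE 0.64, adjusted p = 0.0089). Pdhx and Pdp1 lost their calls with the actin gap and with the cells picked as covariates, and Pcx kept its call. Pcx is also known from astrocytes, whose markers are given above beside Aldoc.

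The 3 largest falls lay in other branches. Gpd2, the mitochondrial glycerol-3-phosphate dehydrogenase of the second NADH shuttle, fell 5.39-fold from 11.12 ± 0.30 to 8.68 ± 0.85 (SD, n = 3 each; log2 -2.43, SE 0.39, limma adjusted p = 0.00016). Taldo1, transaldolase of the pentose phosphate pathway, fell 2.37-fold from 11.26 ± 0.17 to 10.01 ± 0.24 (log2 -1.25, SE 0.20, adjusted p = 0.00015). Pfkfb4, a relative of Pfkfb3, fell 2.12-fold from 6.40 ± 0.62 to 5.31 ± 0.03 (log2 -1.09, SE 0.32, adjusted p = 0.013), and that call was lost without P7 replicate 3 and with either covariate.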

How the data were processed

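RNA was measured on 15 arrays, 3 mice at each of 5 ages. The authors deposited log2 values made with GCRMA, per the submitters' processing notes, whose version is not given in the sources used here. They ran from 0.51 to 16.13, with medians of 3.21 to 3.46, and were used as deposited. Of 45101 probe sets, 34945 named 1 gene, 932 several and 9160 none, and 64 were controls. The brightest single-gene probe set over the 15 arrays stood for a gene, which was tested if that exceeded 5 on at least 3 arrays. Some probe sets of the array design also match related sequences. The number of arrays limits the precision.

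Differences were tested in limma 3.58.1 (R 4.3.3), with 1 mean per age, trended empirical Bayes moderation and 10 residual degrees of freedom (median prior 4.85). The contrasts were P40 minus P7, the 4 neighbouring steps and the F test. Tests were two-sided, adjusted by Benjamini-Hochberg over 9663 genes within each contrast, and called at an adjusted p under 0.05. Each SE is moderated. Isoform pairs used exact two-sided permutation tests of 6 against 6 arrays, since 3 against 3 cannot go below 0.1. The fits were tested on simulated data. Sequences are RefSeq promoter windows, of which 43 member genes had 1 or more; Slc2a3, Slc16a7 and Idh3a had no entry.

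The members, pairs and lists were chosen with earlier results of these data known. Values on every array were given for the called members with the 10 largest P40 minus P7 differences, for genes of a changed pair, and for Hk1, Pfkm, Pfkp, Pkm, Pdha1, Cs and Ogdh. Alternatives were quantile normalization, equal array medians, no filter, a limit of 7, values under 5 set to 5, the mean of a gene's probe sets, a replicate block, the actin gap or cells picked as a covariate, array weights and leaving out each array. Leaving out 3 arrays together was chosen after seeing the data. Same-numbered arrays did not deviate together, so replicate numbers were not taken as pairs. Python 3.11.15 with numpy 2.4.6, pandas 2.3.3 and matplotlib 3.10.9 made the tables and figures.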

Additional observations from a re-analysis of the deposited data

Results flagged for a closer look

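Among 30 groups of 6 arrays (15 isoform pairs, younger and older), 4 held an array farther from the others than Dixon's 95% critical value for the gap over the range allows. Chance flags about 1 in 20 groups. Pdk3 minus Pdk1 was 4.77 on P40 replicate 1, against 0.24 to 0.94 on the other P25 and P40 arrays (ratio 0.847). On that array Pdk1 read 4.28, below the limit of 5, and Pdk3 read 9.05, inside its range at that age. Aldoc minus Aldoa was -2.46 on P40 replicate 3, against -1.80 to -1.53 (ratio 0.707). Mdh2 minus Mdh1 was -0.94 on P25 replicate 1, the array with the highest Mdh1 value, 15.79, against -0.59 to -0.42 (ratio 0.686). Idh3g minus Idh3a was 2.05 on P25 replicate 3, against 1.21 to 1.48 (ratio 0.677).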

How the results depend on the processing

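The P40 minus P7 counts of 24 rises and 5 falls ran from 23 to 28 and from 4 to 6 when each array was left out, and the 32 members with any age difference from 28 to 33. The 12 changed pairs ran from 12 to 14. The replicate block gave 24 and 5 for P40 minus P7, 13 and 1 from P10 to P15 and 28 in the F test, and changed no direction; of 30 same-number pairs of arrays 3 had a correlation over 0.1 (-0.405 to 0.275) and 0 of 15 arrays correlated best with their own number.

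The step counts moved more. From P10 to P15, the 15 rises became 7 without a filter, 24 with array weights, and 0 with the actin gap, with the cells picked or without the 3 arrays that stood apart, and 0 to 19 when each array was left out; the 1 fall became 0 with the mean of probe sets, the cells picked or without the 3 arrays, and stayed 1 when each array was left out. From P7 to P10, the 4 rises became 2 without a filter or without the 3 arrays (2 to 4 when each array was left out), and the 1 fall became 0 without a filter, with the mean of probe sets or without the 3 arrays (0 to 1). From P15 to P25, the count of rises was 1 with array weights (0 when each array was left out), and the 2 falls became 5 after quantile normalization, 8 with array weights and 0 without the 3 arrays (1 to 3). From P25 to P40, 1 rise was called without a filter and with array weights (0 to 1). At an unadjusted p under 0.05 in limma, these counts of 0 without the 3 arrays were 9 rises and 2 falls from P10 to P15, 1 fall from P7 to P10 and 3 falls from P15 to P25. The cause was not tested.

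Signs turned for 6 members, of which Cs alone had a call. Cs was 0.06 with the mean of probe sets. Pfkl was -0.15 with the actin gap and -0.01 to 0.51 when each array was left out. Pgk1 was 0.24 with the mean of probe sets and 0.01 with the actin gap. Slc2a3 was 0.05 with the mean of probe sets, 0.07 with the actin gap, 0.08 with cells picked, 0.06 with array weights and -0.11 to 0.11 when each array was left out. Idh2 was -0.15 after quantile normalization and with equal medians, -0.73 with the actin gap, -0.24 with cells picked, -0.12 with array weights and -0.45 to 0.33 when each array was left out. Mdh2 was 0.12 with the mean of probe sets and -0.10 to 0.01 when each array was left out. Of 23 members with at least 2 usable probe sets, the brightest gave the lowest difference in 13.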
